A study of Mus musculus with 31 samples.

Results

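Cassette exons that are almost always kept in the mRNA of the wild-type cortex were followed in 3 mouse models of Huntington's disease (HD). An event entered this set if it was listed as a cassette, if its position in the files spanned more than 1500 and less than 15000 bases, and if its mean exclusion in the wild-type (WT) mice was below 10% in every group of files that listed it. Exclusion is 100 times the count of the junction that skips the exon (short) divided by the sum of that count and the count of a junction that keeps it (long). The members were thus chosen by the exclusion measured in the WT mice, so their low WT level is a property of the choice and not a result. The rule was met by 287 of 1922 listed events, out of 1853 cassettes and 1238 cassettes of that span. These 287 entries lie in 272 genes, and 286 of them are distinct, since the 2 entries of Rcor3 hold the same counts in every mouse.

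A cassette exon is spliced in when the splice sites on both of its sides are recognised and joined to the flanking exons, and is skipped when the flanking exons are joined directly. RNA-binding proteins such as the hnRNPs, the RBFOX and PTB families and TDP-43 bind in the exon or in the nearby intron and raise or lower its use. Exons with strong splice sites are kept in nearly every transcript.

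The counts came from RASL-seq, a method that ligates 2 probes annealed next to each other across a known junction and counts the products by sequencing, applied to total RNA from the cortex of 31 untreated mice. R6/2 mice, which carry a transgene for exon 1 of mutant human huntingtin under the human promoter beside their own intact huntingtin genes, were taken at 3 months (3 HD mice and 3 WT mice). In the knock-in lines the repeat lies in the mouse's own huntingtin gene. Q150 mice were taken at 7 months, with 150 glutamines on 1 allele and 7 on the other (HET, 150Q/7Q, n = 4) or 150 on both (HOMO, 150Q/150Q, n = 4), and Q175 mice at 18 months, with 175 glutamines on 1 allele (HET, 175Q/7Q, n = 4) or on both (HOMO, 175Q/175Q, n = 3). The 10 knock-in WT mice (Q7/Q7) form 1 group in the labels, of which 5 share the event list of the Q150 files and 5 that of the Q175 files, and each line was compared with its own 5. Homozygotes have no WT huntingtin allele, while heterozygotes and R6/2 mice do. Line, age and kind of allele change together between the models and cannot be told apart. In R6/2 the mouse numbers of HD and WT animals come from separate series, so animal series and genotype cannot be told apart there either. The tissue holds all cell types of the cortex, and a change of the ratio within cells cannot be told apart from a change in the share of cells that use it, nor fewer cells of a type from less RNA per cell.

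Of the 287 events, 247 of 1743 events were listed for the R6/2 files, 258 of 1785 for Q150 and 270 of 1839 for Q175, and 228 were in all 3. All of them passed the minimum mean of 10 counts. Total counts per mouse were between 2171709 and 5256516, of which the members took between 517758 and 1271912. Per member and mouse the short count had a median of 40 and went from 4 to 1603, the long count had a median of 1607, and the 95% Wilson interval of exclusion had a median half-width of 0.875 points and at most 8.91 points. These intervals cover counting error only, since no molecular identifiers are stated and PCR copies of 1 molecule may have been counted separately. None of the 47 pairs of mice within a group differed by so little that they could be the same library, the lowest chi-square per degree of freedom being 4.26. Of 8 neuronal markers 2 (Grin1 and Syt1) had events in all sets, which together took 3.28 to 3.71% of all counts in R6/2 WT and 2.55 to 3.02% in HD mice, 3.37 to 4.09% in Q150 WT, 2.89 to 3.697% in HET and 2.93 to 3.36% in HOMO mice, and 2.98 to 3.801, 3.04 to 3.64 and 3.13 to 3.62% in the same groups of Q175. The summed share of these 2 genes was thus lower in every R6/2 HD mouse than in any WT mouse of its set. In Q150 the highest HOMO mouse (3.362%) lay only just below the lowest WT mouse (3.368%). The part of this share in the results was not tested. Of 5 oligodendrocyte markers 2 (Mag and Mbp) had events, at 0.900 to 1.31% in R6/2 HD against 1.09 to 1.33% in WT mice, 0.731 to 1.27% in Q150 HOMO against 0.714 to 1.14% in WT mice and 0.586 to 1.00% in Q175 HOMO against 0.767 to 0.962% in WT mice, and of 3 endothelial markers 1 (Pecam1). Markers of astrocytes, microglia and striatum had no event.

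By the choice, the median WT exclusion over the members was 3.60% in R6/2, 3.35% in Q150 and 3.56% in Q175. Between 43 and 50 members per set were below 1%. Averaged over the sets that list the event, the lowest WT exclusion was that of Plekhb1 (0.0413%, Q150 only), a membrane protein with a pleckstrin homology domain, followed by Mxd4, a partner of MAX, at 0.0641% (R6/2 only), and Mbp, the myelin basic protein, at 0.0471 to 0.109% in the single sets. Just inside the limit were Ttc3 (highest WT mean 9.80%), Afg3l1 (9.88%) and Fbxo39 (9.91%), and just outside it were Atp11a (10.2%), 2610101N10Rik (10.3%) and Cacna1g (10.4%). The members span 1537 to 14749 bases (median 4743) and lie on 20 chromosomes, 7 of them on X.

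The positions in the files do not fall on exon bounds of the mouse genome GRCm38, so exons were identified by their gene and by the exact length of the intron that is left when the exon is skipped. A single GRCm38 exon fitted 243 of the 287 members and 1520 of the 1853 cassettes. The matched member exons had a median length of 93 bases (quartiles 49.5 and 130), and 241 of the 243 had an AG before and a GT after them. They were protein-coding in 226 cases (93.0%), against 78.0% of exons in balanced use (all WT means 10 to 90%) and 56.8% of exons that are mostly skipped (all WT means over 90%) of the same span. The lengths of 137 of the 226 coding member exons (60.6%) are multiples of 3. That share was 80.0% for coding exons in balanced use (359 of 449) and 83.1% for mostly skipped ones (69 of 83). Skipping would thus shift the reading frame for a larger share of the coding member exons than of the exons of the other classes, a difference given here with no test. The motif TGTGTG, the DNA form of the UG repeat bound by TDP-43, occurred in the 200 intron bases before 13.6% of the member exons and after 16.5%, against 16.4% and 17.3% for all matched cassettes. Its reverse complement CACACA occurred before 8.64% and after 7.00%, against 6.12% and 7.37%.

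The exons below are shown because they were called in the same direction in R6/2 HD, Q150 HOMO and Q175 HOMO mice (13 exons), or because they moved differently between models (Ttc3 and Ank1). Each is written 5′ to 3′ on the transcribed strand of GRCm38, with the exon in capitals and the 20 intron bases on either side in lower case. Of the 13, 7 have coding lengths that are not a multiple of 3, namely Crcp and Dnajc8 (both 95 bases), Fmr1 (196), Hnrnpk (44), Letmd1 (116), Sltm (181) and Urgcp (71). The exons on the plus strand are Ank1 chr8:23110347-23110370, Camk2d chr3:126805857-126805916, Crcp chr5:130042206-130042300, Dnajc8 chr4:132544657-132544751, Fmr1 chrX:68710584-68710779, Itpr1 chr6:108365299-108365343, Letmd1 chr15:100471660-100471775, Mtap7d2 chrX:159460267-159460365, Ociad1 chr5:73310274-73310426, Sltm chr9:70583932-70584112, Tbp chr17:15514230-15514397 and Ttc3 chr16:94409684-94409729. Those on the minus strand are Hnrnpk chr13:58397753-58397796, Urgcp chr11:5726348-5726418 and Ybx1 chr4:119282781-119282870.
Ybx1: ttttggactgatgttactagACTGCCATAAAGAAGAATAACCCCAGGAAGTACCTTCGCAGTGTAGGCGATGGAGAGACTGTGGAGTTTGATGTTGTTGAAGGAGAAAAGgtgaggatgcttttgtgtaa
Camk2d: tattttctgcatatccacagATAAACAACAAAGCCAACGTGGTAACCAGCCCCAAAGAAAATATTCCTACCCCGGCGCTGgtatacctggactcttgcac
Letmd1: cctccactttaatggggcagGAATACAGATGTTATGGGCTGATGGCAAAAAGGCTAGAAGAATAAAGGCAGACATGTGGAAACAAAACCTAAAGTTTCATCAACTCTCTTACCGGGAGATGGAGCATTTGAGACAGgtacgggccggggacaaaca
Urgcp: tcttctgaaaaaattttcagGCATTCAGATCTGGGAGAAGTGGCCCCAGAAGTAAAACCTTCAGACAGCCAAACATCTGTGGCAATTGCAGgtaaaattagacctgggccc
Crcp: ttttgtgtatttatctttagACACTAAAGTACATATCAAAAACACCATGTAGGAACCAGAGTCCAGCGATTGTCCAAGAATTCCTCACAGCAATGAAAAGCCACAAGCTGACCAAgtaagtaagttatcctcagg
Itpr1: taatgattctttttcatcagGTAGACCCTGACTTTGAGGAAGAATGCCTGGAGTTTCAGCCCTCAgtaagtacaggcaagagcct
Fmr1: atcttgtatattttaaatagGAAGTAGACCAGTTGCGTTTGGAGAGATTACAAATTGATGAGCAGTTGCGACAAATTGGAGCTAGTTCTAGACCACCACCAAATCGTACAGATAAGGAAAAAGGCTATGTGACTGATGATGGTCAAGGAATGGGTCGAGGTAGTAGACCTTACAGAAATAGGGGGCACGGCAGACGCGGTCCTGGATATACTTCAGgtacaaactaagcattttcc
Mtap7d2: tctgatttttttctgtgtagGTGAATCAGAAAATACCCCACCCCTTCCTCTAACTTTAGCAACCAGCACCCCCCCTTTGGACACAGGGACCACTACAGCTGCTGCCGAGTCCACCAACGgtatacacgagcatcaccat
Sltm: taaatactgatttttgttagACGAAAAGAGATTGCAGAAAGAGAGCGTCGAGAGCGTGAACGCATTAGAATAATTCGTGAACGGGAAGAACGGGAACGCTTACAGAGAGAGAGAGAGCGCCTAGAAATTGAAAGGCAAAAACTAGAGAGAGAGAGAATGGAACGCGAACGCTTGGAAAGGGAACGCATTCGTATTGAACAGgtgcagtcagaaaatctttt
Dnajc8: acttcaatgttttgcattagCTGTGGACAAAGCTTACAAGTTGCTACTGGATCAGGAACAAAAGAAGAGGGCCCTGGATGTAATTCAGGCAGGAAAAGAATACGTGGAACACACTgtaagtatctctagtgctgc
Hnrnpk: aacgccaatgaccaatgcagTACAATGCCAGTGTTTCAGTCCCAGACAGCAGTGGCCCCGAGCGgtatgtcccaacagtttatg
Tbp: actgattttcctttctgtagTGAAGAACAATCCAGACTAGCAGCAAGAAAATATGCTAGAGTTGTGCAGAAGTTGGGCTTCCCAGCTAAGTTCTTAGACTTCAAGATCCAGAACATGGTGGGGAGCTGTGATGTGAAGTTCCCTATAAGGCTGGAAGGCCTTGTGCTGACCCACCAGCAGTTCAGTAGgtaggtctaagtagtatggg
Ociad1: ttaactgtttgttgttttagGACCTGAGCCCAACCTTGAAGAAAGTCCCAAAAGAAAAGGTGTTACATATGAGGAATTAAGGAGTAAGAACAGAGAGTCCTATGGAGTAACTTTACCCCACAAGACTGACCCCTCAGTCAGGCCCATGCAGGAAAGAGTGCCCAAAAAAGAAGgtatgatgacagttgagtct
Ttc3: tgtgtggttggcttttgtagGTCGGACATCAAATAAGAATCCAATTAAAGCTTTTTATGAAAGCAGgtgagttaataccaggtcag
Ank1: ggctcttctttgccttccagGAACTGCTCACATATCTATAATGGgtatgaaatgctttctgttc

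Averaged over the members listed for a set, exclusion was 3.77, 3.99 and 3.92% in the R6/2 WT mice and 5.36, 5.11 and 5.15% in the HD mice. In the Q150 set it was 3.67, 3.83, 3.76, 3.63 and 3.89% in WT, 4.32, 4.36, 3.99 and 4.20% in HET and 4.76, 5.04, 4.72 and 4.44% in HOMO mice. In the Q175 set it was 3.95, 3.79, 4.04, 3.897 and 3.67% in WT, 3.76, 4.24, 4.08 and 4.01% in HET and 4.10, 4.04 and 4.23% in HOMO mice. Every R6/2 HD mouse thus lay above every WT mouse, and in Q150 the 3 genotypes did not overlap, with WT lowest and HOMO highest. The mean over all events was separated in the same order, at 45.3 to 45.5% in R6/2 WT and 47.0 to 47.5% in HD mice, and at 44.5 to 44.9% in Q150 WT, 45.4 to 45.7% in HET and 46.0 to 46.9% in HOMO mice, so this order is not particular to the members. All 3 Q175 HOMO mice lay above the 5 WT mice, the lowest by less than the digits shown, but within the range of the HET mice. The group means were 3.89% ± 0.109 (SD, n = 3) and 5.21% ± 0.131 (SD, n = 3) in R6/2, a difference of 1.31 points. In Q150 they were 3.76% ± 0.109 (SD, n = 5), 4.22% ± 0.163 (SD, n = 4) and 4.74% ± 0.247 (SD, n = 4). HOMO and HET differed there by 0.524 points, a contrast that uses no WT mouse. Within the low series of mouse numbers they differed by 0.679 points (2 HOMO and 3 HET mice). Within the high series it was 0.382 points, with 2 HOMO mice and a single HET mouse. In Q175 they were 3.87% ± 0.141 (SD, n = 5), 4.02% ± 0.201 (SD, n = 4) and 4.12% ± 0.101 (SD, n = 3), so HOMO exceeded WT by 0.257 points and HET by 0.100 points. The mean follows the members with the highest exclusion. With the median over members in its place the differences against WT were 0.752 points in R6/2, 0.271 for Q150 HET, 0.417 for Q150 HOMO and 0.0459 for Q175 HOMO, and HOMO exceeded HET by 0.146 points in Q150 and by 0.0384 in Q175 (0.0597 with summed counts). By the median the R6/2 and the Q150 HOMO mice still lay above all their WT mice, but 1 of the 4 Q150 HET mice overlapped with WT, 1 of the 4 HOMO mice with HET, and no Q175 HOMO mouse lay above all WT mice. A group mean of 20% was reached by 2 members, both in R6/2 HD.

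**Figure D1:**
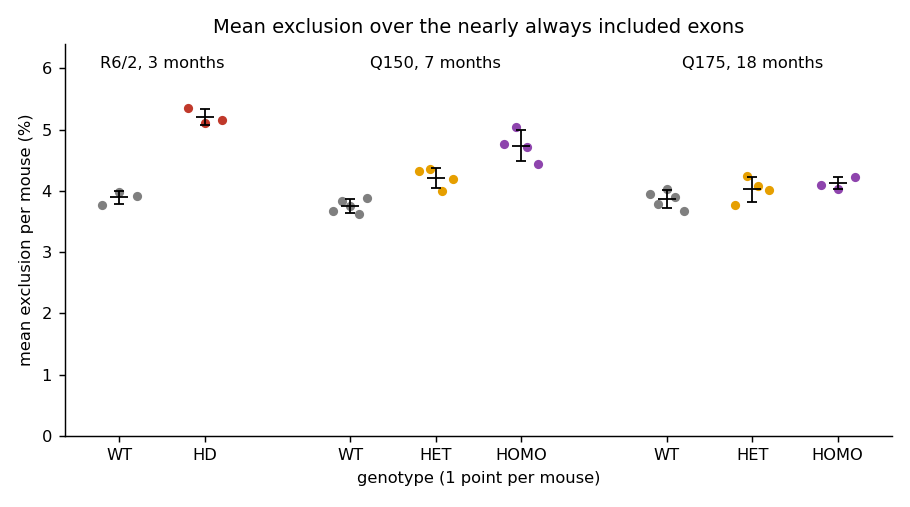
Mean exclusion over the listed members (y axis, percent) for each mouse (points) by model and genotype, with the group mean and SD as bars. The R6/2 HD mice (5.11 to 5.36%) and the Q150 HOMO mice (4.44 to 5.04%) lie above all WT mice of their sets, and the Q175 groups lie close together. The members were chosen by their exclusion in these WT mice.

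In R6/2 HD mice 74 of the 247 members were called higher and 14 lower, where called means a limma adjusted p under 0.05 for the log2 short-to-long ratio, adjusted over all 1743 events. Of all events 21.1% were called higher and 7.46% lower. The rule used the WT mice of this contrast, as of all contrasts with WT, so nothing is read from the difference between these shares. The median log2 change was 0.31 over the members and 0.18 over all events, and since the ratio shifts up as a whole, each mouse was also centred on its median event, after which 58 of 77 calls were higher. The centred split over all events is not given, so nothing is read from the centred counts of members, in this or the other comparisons. When the members were chosen by the WT mice of the other sets, 74 of 252 were called higher (29.4%) and 17 lower.

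**Figure D2:**
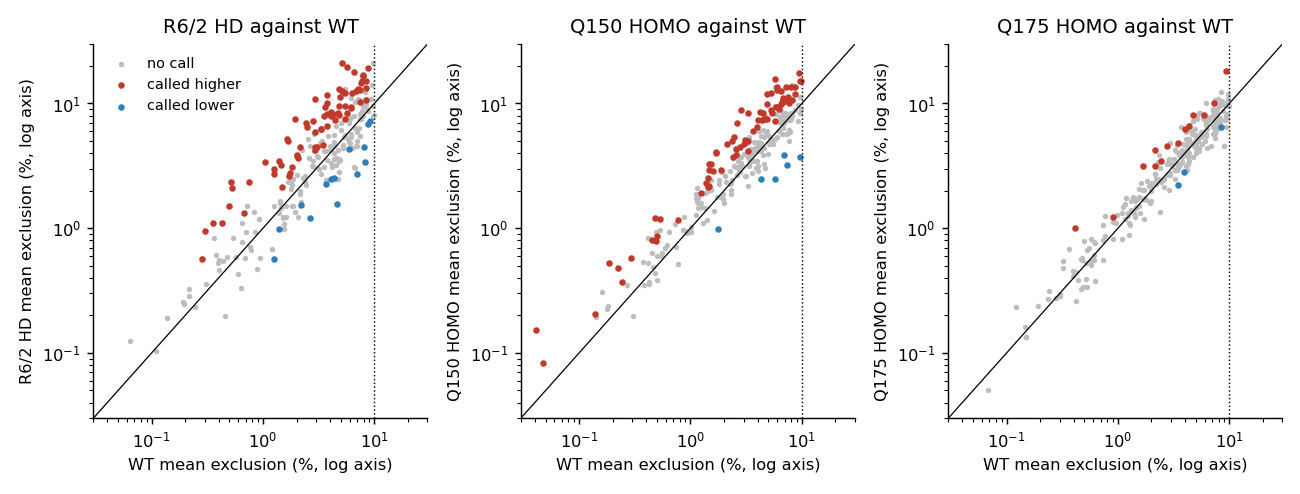
Group mean exclusion of each member in mutant mice (y axis, percent, log scale) against WT mice (x axis, percent, log scale) for R6/2, Q150 HOMO and Q175 HOMO, with called members coloured, equality as a solid line and the 10% limit dotted. Called members lie mostly above the line, 74 against 14 in R6/2, 77 against 6 in Q150 HOMO and 14 against 3 in Q175 HOMO. Of all events 21.1% were called higher and 7.46% lower in R6/2, 19.8% and 4.09% in Q150 HOMO, and 5.60% and 1.47% in Q175 HOMO. The rule capped the WT values on the x axis, so nothing is read from the excess above the line.

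The steepest rise in R6/2 belonged to BC042720, with 5.16, 4.98 and 5.35% in WT and 22.9, 19.2 and 21.4% in HD mice. All HD mice lay far above the WT mice (log2 change 2.29 ± 0.17 SE, limma adjusted p 1.74e-06). Q150 HOMO mice had 11.1, 11.4, 9.86 and 9.97% against 5.71, 7.44, 6.28, 8.12 and 7.44% in WT, a smaller rise (log2 change 0.66, limma adjusted p 0.00283), and the difference between these changes was itself called (limma adjusted p 3.63e-05).

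Camkk2, the kinase that activates CaM kinases and AMPK, had 0.715, 0.545 and 0.289% in WT and 2.75, 1.57 and 2.78% in HD mice (log2 change 2.25 ± 0.39 SE, limma adjusted p 0.000989). Mcf2l, a guanine nucleotide exchange factor, had 5.0, 2.13 and 1.72% and 13.02, 10.8 and 8.58% (log2 change 2.03, limma adjusted p 0.00460), without overlap. In Q150 and Q175 WT mice the Mcf2l exon was already skipped at 3.69, 3.66, 4.62, 10.9 and 9.74% and 6.78, 5.35, 8.44, 7.03 and 11.04%, and its HOMO mice overlapped with WT in both lines.

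Fis1, an outer membrane protein of mitochondrial fission, rose from 6.13, 5.24 and 5.77% in WT to 26.2, 23.01 and 10.003% in HD mice, the last of which was far below the others but still above all WT mice (limma adjusted p 0.000925). Serac1, needed for phosphatidylglycerol remodelling, had 3.75, 8.48 and 7.59% against 18.4, 17.4 and 17.4% (limma adjusted p 0.00276). Q150 HOMO mice reached a like level for Serac1, 17.1, 16.0, 13.8 and 15.8% against 3.97, 7.64, 4.61, 8.02 and 4.66% in WT (limma adjusted p 9.68e-05), with HET mice at 7.5, 12.02, 8.11 and 13.6%. The Q175 HOMO mice lay above their WT mice as well, at 8.83, 8.20 and 7.22% against 4.19, 4.53, 5.51, 7.18 and 4.43%, with no call (log2 change 0.70 ± 0.31 SE, limma adjusted p 0.202), and this change was not called different from that in R6/2 or Q150 HOMO (limma adjusted p 0.226 and 0.238).

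Of the remaining large rises in R6/2, mKIAA0544 (current symbol Mgrn1, a ubiquitin ligase) had 0.936, 0.904 and 1.27% in WT and 3.99, 2.56 and 3.58% in HD mice (limma adjusted p 0.000387). D11Bwg0517e had 0.355, 0.263 and 0.280% and 0.922, 1.08 and 0.835% (limma adjusted p 0.00139). Ndrg4, listed in R6/2 only, had 2.60, 1.48 and 0.974% and 6.13, 3.28 and 5.65% (limma adjusted p 0.0140), a call that was lost without WT mouse 6 or HD mouse 860 (adjusted p up to 0.0585). In each of these genes the HD mice lay above all WT mice.

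Exons that were skipped less in R6/2 HD mice included that of Eif2a, a translation initiation factor, with 5.82, 8.79 and 6.22% in WT and 2.78, 2.98 and 2.37% in HD mice (log2 change -1.402 ± 0.20 SE, limma adjusted p 0.000252). The exon of 2700029M09Rik (Hpf1, a cofactor of PARP enzymes) had 7.07, 8.83 and 8.65% and 4.19, 3.31 and 2.68% (log2 change -1.35, limma adjusted p 0.000939). Neither was called in Q150 or Q175 HOMO mice, and for both the R6/2 change differed from the Q150 HOMO change (limma adjusted p 0.0245 and 0.0245). These differences were lost without any 1 of 3 of the 15 mice with adjusted p up to 0.0948 for Eif2a and without any 1 of 3 of the 15 mice with adjusted p up to 0.0862 for 2700029M09Rik.

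Other falls in R6/2 had higher p-values, save that of Ociad1, which is described below. The exon of pcm-1, a centriolar satellite protein, had 2.54, 3.06 and 2.31% in WT and 0.910, 2.31 and 0.427% in HD mice (log2 change -1.45, limma adjusted p 0.0369), that of Tmem41b, a lipid scramblase, 0.972, 1.51 and 1.29% and 0.616, 0.319 and 0.756% (log2 change -1.20, limma adjusted p 0.0428), and that of Picalm, a clathrin assembly protein, 6.75, 6.74 and 10.6% and 3.78, 4.41 and 5.18% (log2 change -0.89, limma adjusted p 0.0269). The groups did not overlap in any of the 3 genes. Each of these calls was lost when single mice were left out, with adjusted p up to 0.114 for pcm-1 (5 of the 6 mice), 0.155 for Tmem41b (WT 4 and 6, HD 860 and 868) and 0.118 for Picalm (WT 6, HD 860 and 868).

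In Q150 HOMO mice 77 of 258 members were called higher and 6 lower against WT, beside 19.8% and 4.09% of all events. The median log2 change was 0.33 over members and 0.19 over all events. After centring, 41 of 51 calls were higher. The members called higher had a median change of 2.59 points. When members were chosen by the WT mice of the other sets, 76 of 257 were called higher (29.6%) and 7 lower. In HET mice 11 members were called higher and 1 lower, beside 3.03% and 0.448% of all events, with a median of 0.17 over members and 0.10 over all events, and 6 of 8 calls were higher after centring. The mouse-number series as a block gave 32 calls in HET mice, and leaving out HET replicate 1 gave 1. The shares of all events called in these refits are not given, so nothing is read from how the counts of members move. Of the 12 HET calls 1 held with each mouse left out.

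Rbm5, a splicing regulator, has 2 member exons. The first had 1.64, 4.06, 2.69, 2.03 and 3.896% in WT, 7.63, 4.65, 6.25 and 7.96% in HET and 10.8, 8.45, 8.04 and 8.46% in HOMO mice. Both mutant groups lay above all WT mice (log2 change 1.30 ± 0.27 and 1.78 ± 0.27 SE, limma adjusted p 0.0117 and 5.93e-05), and the HET call was lost without HET replicate 1 (adjusted p 0.0561). The other Rbm5 exon had 3.75, 4.34, 4.19, 3.68 and 4.23%, 5.81, 5.90, 5.23 and 7.26% and 8.23, 6.86, 7.19 and 6.97%, again with every mutant mouse above every WT mouse (limma adjusted p 0.0137 and 3.25e-05, the HET call again lost without HET replicate 1 with adjusted p of 0.0561). Both exons rose in R6/2 too (log2 change 1.51 and 1.24, limma adjusted p 0.00867 and 0.000166). In Q175 the first exon had 3.60, 4.79, 4.76, 3.24 and 3.91% in WT and 5.62, 6.79 and 5.25% in HOMO mice, all above WT but not called (log2 change 0.57 ± 0.26 SE, limma adjusted p 0.219). The other exon overlapped there, at 3.97, 7.89, 5.48, 5.12 and 5.15% and 4.80, 5.74 and 5.68% (limma adjusted p 0.999).

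Srrm2, a large protein of the spliceosome, had 6.56, 3.62, 7.14, 7.05 and 4.59% in WT, 9.38, 14.9, 11.03 and 12.1% in HET and 7.19, 12.3, 8.47 and 10.2% in HOMO mice. The HET mice were the highest group, yet their call (limma adjusted p 0.0459) was lost on leaving out any 1 of the 9 mice of that contrast, with adjusted p of 0.0571 to 0.146, and HOMO mice were not called (limma adjusted p 0.0827). 2210018M11Rik (Emsy, a chromatin protein that binds BRCA2) had 7.99, 5.98, 5.73, 5.60 and 4.58%, 11.97, 11.7, 10.1 and 10.7% and 16.0, 16.2, 11.05 and 10.6%, and here both mutant groups were called (limma adjusted p 0.00875 and 3.38e-05). The HET call was lost without HET replicate 1 (adjusted p 0.0555). The rise of the Emsy exon in HOMO mice differed from that in Q175 HOMO mice (limma adjusted p 0.0167), which was lost without Q175 HOMO replicate 1 with adjusted p of 0.0799.

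Other large rises in Q150 HOMO mice were those of Kdm6a, a histone demethylase on the X chromosome, with 6.86, 2.68, 4.26, 6.43 and 4.17% in WT and 14.7, 11.9, 10.8 and 9.98% in HOMO mice (limma adjusted p 0.000884), and of 5830434P21Rik (Prrc2b), with 2.97, 2.74, 2.01, 3.66 and 1.79% and 7.54, 8.22, 8.16 and 3.99% (limma adjusted p 0.00128). Trim9, a ubiquitin ligase of neurons listed in Q150 only, had 0.211, 0.147, 0.150, 0.141 and 0.287% and 0.593, 0.645, 0.460 and 0.390% (limma adjusted p 0.00473). In all 3 genes the HOMO mice were above all WT mice. Kdm6a also rose in R6/2 (4.48, 5.84 and 5.91% against 11.2, 9.06 and 16.2%, limma adjusted p 0.0184, lost without WT mouse 3 or HD mouse 869 with adjusted p up to 0.111), and in Q175 HOMO mice it stood at 7.31, 6.15 and 6.87% against 7.76, 5.15, 10.9, 7.32 and 7.01% in WT, a change that differed from the one in Q150 HOMO (limma adjusted p 0.0204, lost without Q175 HOMO replicate 1 or 2 with adjusted p up to 0.0598).

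The clearest fall was in Ttc3, a ubiquitin ligase of Akt, with 8.69, 10.6, 10.2, 9.17 and 9.70% in WT, 5.58, 5.92, 5.82 and 7.42% in HET and 2.98, 3.26, 3.65 and 4.91% in HOMO mice. The 3 genotypes were fully separated and in order of the number of mutant alleles. The log2 changes were -0.70 ± 0.15 SE in HET and -1.50 ± 0.15 SE in HOMO mice (limma adjusted p 0.0117 and 2.95e-07), and the HET call was lost without HET replicate 1 with adjusted p of 0.0561. In R6/2 the HD mice had 7.54, 5.96 and 10.3% against 10.9, 8.83 and 9.63%, which overlapped (limma adjusted p 0.184), and in Q175 HOMO mice 6.16, 7.10 and 6.15% against 8.13, 6.95, 8.99, 10.1 and 7.82%, which overlapped as well (log2 change -0.40, limma adjusted p 0.0388). That Q175 call was lost without any 1 of 5 of the 8 mice with adjusted p up to 0.165, and was lost with mouse-number series as a block (adjusted p 0.254). The Q150 HOMO change of Ttc3 differed from both (limma adjusted p 0.00537 and 0.00216).

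The other large falls in Q150 HOMO mice were those of Sccpdh, a putative oxidoreductase, with 8.33, 8.89, 5.43, 6.87 and 7.46% in WT and 2.87, 2.06, 2.98 and 4.92% in HOMO mice (limma adjusted p 0.0108), and Gabpb1, a subunit of the transcription factor GABP, with 5.80, 5.52, 6.46, 4.93 and 5.98% and 3.33, 2.08, 1.90 and 2.59% (limma adjusted p 0.00747). The HOMO mice lay below all WT mice in both. Their HET mice overlapped with WT, at 8.04, 5.18, 6.03 and 6.48% and 5.81, 4.00, 4.19 and 7.30%.

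In Q175 HOMO mice 14 of 270 members were called higher and 3 lower against WT, beside 5.60% and 1.47% of all events, and the medians were 0.09 over members and 0.07 over all events. After centring 11 of 17 calls were higher. Leaving out HOMO replicate 1 gave 7 calls, without WT replicate 9 or HOMO replicate 3 there were 11, and without a variance trend 5, those of Ybx1, Crcp, Ociad1, Camk2d and Urgcp. With mouse-number series as a block there were 15, all higher, of which 11 are among the 17, so the 3 lower calls were lost. Of the 17 called members 13 were called in both other models in the same direction and are described below. Rbfox2, a splicing regulator, had 5.43, 3.79, 6.35, 4.47 and 3.38% in WT and 9.12, 7.80 and 7.31% in HOMO mice (limma adjusted p 0.0462), and HET mice, at 5.63, 7.05, 7.71 and 5.13%, overlapped with both. No HOMO mouse overlapped with WT, but 6 of the 8 mice of the contrast each removed the call when left out (adjusted p up to 0.215), and R6/2 and Q150 HOMO mice overlapped with their WT mice. The Rbfox2 call was also lost with mouse-number series as a block, without a variance trend, with a pseudocount of 5, after centring and with all 10 knock-in WT mice. Nna1 (Agtpbp1), a carboxypeptidase that shortens glutamate chains on tubulin, fell, with 2.72, 4.08, 2.64, 4.18 and 3.83% in WT and 1.96, 2.21 and 2.45% in HOMO mice (limma adjusted p 0.0182, up to 0.120 with 1 mouse left out and 0.167 with mouse-number series as a block). It fell in R6/2 as well (4.37, 3.99 and 3.83% against 2.17, 2.51 and 2.80%, limma adjusted p 0.00954), but not in Q150 HOMO mice (log2 change 0.12). In Q175 HET mice 1 member was called higher, Ybx1, and none lower, beside 0.381% and 0.218% of all events. In that limma contrast 23 members (8.52%) had an unadjusted p under 0.05, beside 198 of 1839 events (10.8%), and a quasi-binomial model called 3 higher and none lower.

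HOMO against HET is the contrast whose difference holds no WT mouse, although the WT mice of the set are in the fit and share in its spread. In Q150 6 of 258 members were called higher in HOMO and 1 lower, beside 1.90% and 0.280% of all events. The log2 change was positive in 184 of the 258 members (71.3%), against 62.5% of all 1785 events, with a median of 0.17 over members, 0.09 over all events, 0.08 over exons in balanced use and 0.03 over mostly skipped ones. In Q175 1 of 270 was called higher and none lower, beside 0.761% and 0.0544% of all events, with medians of 0.02 over members and 0.03 over all events. With an unadjusted p under 0.05 there were 49 members (19.0%) in Q150, beside 251 of 1785 events (14.1%), and 24 (8.89%) in Q175, beside 200 of 1839 events (10.9%). The mouse-number series as a block gave 13 calls in Q150, leaving out HOMO replicate 1 gave 2, and centring gave 2, of which 1 was higher. In Q175 all HET mice come from the low and all HOMO mice from the high series, so the block rests on the WT mice, and it left no call.

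**Figure D3:**
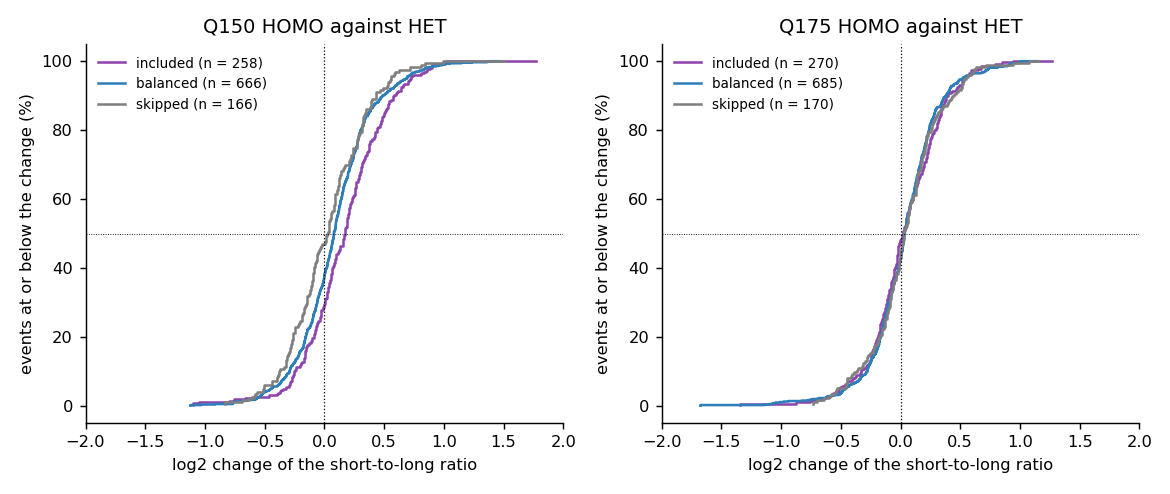
Cumulative share of events (y axis, percent) at or below a log2 difference of the short-to-long ratio in HOMO against HET mice (x axis) for nearly always included, balanced and mostly skipped exons of the same span, with dotted lines at 0 and at 50%. In Q150 the curve of the included exons lies to the right, with a median of 0.17 against 0.08 and 0.03, and in Q175 the curves lie on each other.

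Slc30a9, a zinc transporter, had the firmest of these calls, with 7.65, 7.13, 6.86 and 8.09% in HET and 13.6, 13.6, 13.3 and 10.6% in HOMO mice and 4.59, 6.51, 5.17, 6.79 and 6.83% in WT. No genotype overlapped with another (HOMO against HET log2 change 0.86 ± 0.14 SE, limma adjusted p 0.00128), and the call held with each mouse left out (adjusted p up to 0.0105). Ttc3 held likewise, in the other direction (log2 change -0.80 ± 0.15 SE, limma adjusted p 0.00583, up to 0.0398).

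The other calls were lost when single mice were left out. Peli3, a ubiquitin ligase of innate immune signalling, had 5.13, 6.59, 6.76 and 3.97% in HET and 10.1, 11.4, 11.4 and 9.38% in HOMO mice, while HET and WT (4.72, 6.84, 7.38, 7.29 and 7.35%) overlapped (limma adjusted p 0.0251, up to 0.0831). Cnot1, the scaffold of the CCR4-NOT deadenylase, had 0.618, 0.664, 0.529 and 0.753% and 1.27, 1.01, 1.73 and 0.785%, with no overlap (limma adjusted p 0.0304, up to 0.153). Nbr1, an autophagy receptor, had 3.08, 2.72, 3.11 and 2.99% and 5.60, 5.59, 4.09 and 3.60% (limma adjusted p 0.0252, up to 0.109), and again no HOMO mouse overlapped with HET. Plekhb1 had 0.0436, 0.108, 0.0172 and 0.0322% and 0.148, 0.0831, 0.211 and 0.172% (limma adjusted p 0.0251, up to 0.102). These levels are the lowest of the set, and 1 HET mouse lay within the HOMO range. Hnrnph2, an RNA-binding protein named here after its values were seen, had 4.12, 3.19, 3.52 and 2.41% and 4.48, 5.90, 5.15 and 4.57%, without overlap (limma adjusted p 0.0343), a call lost without any 1 of 6 of the 8 mice with adjusted p up to 0.149. With only the HOMO and HET mice in the fit, the calls of Cnot1 and Hnrnph2 were lost as well.

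Of the 228 members tested in all 3 sets, 12 were called higher in R6/2 HD, Q150 HOMO and Q175 HOMO mice and 1 was called lower. Of all 1662 events tested in the 3 sets, 3.73% were called higher and 0.361% lower in all, beside 5.26% and 0.439% of the members. R6/2 and Q150 HOMO shared 48 members called higher, which are 65.8% of the 73 called in R6/2 and 64.9% of the 74 called in Q150 HOMO among those tested in both. Of all events they shared 211, which are 58.0% of 364 and 61.7% of 342. The rule used the WT mice of these contrasts, so nothing is read from the difference between the shares. Hnrnpk and Tbp fall outside the rule for named exons and are given because the count is small.

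**Figure D4:**
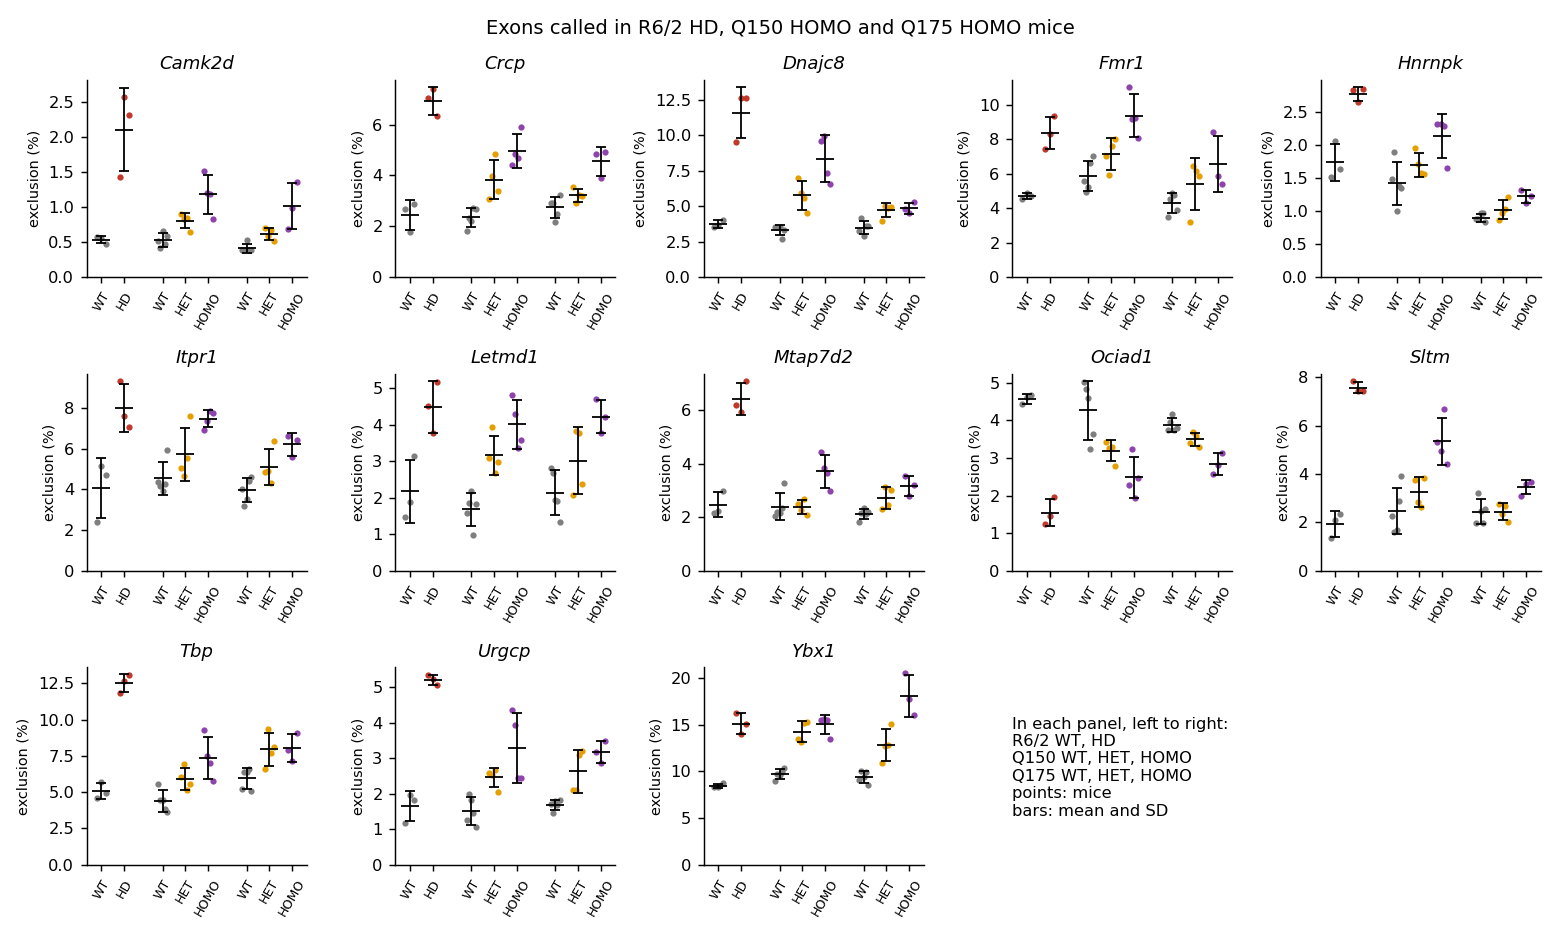
Exclusion (y axis, percent, from 0, scaled per panel) of the 13 exons called in 1 direction in all 3 models, by genotype (x axis), with 1 point per mouse and the group mean and SD as bars. Ociad1 falls in mutant mice and the other 12 rise.

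Ybx1, which encodes a Y-box protein that binds mRNA, had the highest exclusion of the 13. R6/2 mice had 8.30, 8.34 and 8.70% in WT and 16.3, 14.0 and 15.1% in HD. Q150 mice had 8.94, 9.74, 9.55, 9.95 and 10.4% in WT, 13.4, 13.2, 15.2 and 15.3% in HET and 15.5, 15.6, 15.5 and 13.5% in HOMO, and Q175 mice had 9.06, 10.01, 9.42, 9.94 and 8.57%, 10.8, 12.8, 12.8 and 15.1% and 20.5, 17.7 and 16.1%. No mutant mouse of any group overlapped with its WT mice. In Q150 HET and HOMO mice overlapped (log2 difference 0.09, limma adjusted p 0.765), whereas in Q175 all HOMO mice were above all HET mice (log2 difference 0.59 ± 0.12 SE, limma adjusted p 0.00275). That last call was lost without HOMO replicate 1 (adjusted p 0.0742), with mouse-number series as a block (0.0633) and without a variance trend (0.195). The HET call against WT (limma adjusted p 0.00674) was lost without HET replicate 4 (0.0920), with the block (0.123) and without the trend (0.351). Against WT the log2 changes were 0.94 ± 0.11 in R6/2 HD, 0.72 ± 0.11 in Q150 HOMO and 1.09 ± 0.11 SE in Q175 HOMO mice, with limma adjusted p of 7.30e-05, 4.23e-05 and 5.78e-09. The Q175 HOMO change was not called different from the R6/2 or the Q150 HOMO change (limma adjusted p 0.655 and 0.191).

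Camk2d, the delta chain of the calcium/calmodulin-dependent kinase II, had a low level and large relative changes. Exclusion was 0.567, 0.554 and 0.474% in R6/2 WT and 1.43, 2.56 and 2.31% in HD mice. It was 0.509, 0.411, 0.660, 0.473 and 0.587% in Q150 WT, 0.891, 0.826, 0.834 and 0.647% in HET and 1.51, 1.19, 1.19 and 0.825% in HOMO mice. In Q175 it was 0.380, 0.389, 0.521, 0.379 and 0.380%, 0.702, 0.579, 0.666 and 0.506% and 0.688, 0.985 and 1.35%. All HD and HOMO mice lay above their WT mice. Log2 changes against WT were 1.95 ± 0.25, 1.14 ± 0.19 and 1.25 ± 0.23 SE (limma adjusted p 0.000120, 0.000183 and 0.000373). The other member exon of Camk2d was called in none of the models (log2 change 0.48, -0.07 and -0.08).

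The exon of Itpr1, which encodes the calcium channel of the endoplasmic reticulum gated by inositol trisphosphate, was skipped at 2.40, 5.16 and 4.71% in R6/2 WT and 9.35, 7.59 and 7.08% in HD mice. Q150 mice had 4.38, 4.17, 3.94, 4.28 and 5.93% in WT, 5.06, 4.67, 5.52 and 7.63% in HET and 6.93, 7.38, 7.86 and 7.77% in HOMO. Q175 mice had 4.03, 3.19, 3.55, 4.43 and 4.62%, 4.85, 4.90, 4.32 and 6.36% and 6.64, 5.58 and 6.43%. HD and HOMO mice did not overlap with WT (limma adjusted p 0.00831, 0.00140 and 0.00374), and the Q175 call was lost with the block (0.102). Without a variance trend the Itpr1 calls in R6/2 HD and in Q175 HOMO mice were both lost (limma adjusted p 0.0529 and 0.0528).

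Among the RNA-binding genes, Fmr1, whose product FMRP is a translational regulator lost in fragile X syndrome, had 4.51, 4.90 and 4.72% in R6/2 WT and 7.47, 8.29 and 9.36% in HD mice. Q150 mice had 5.60, 4.93, 5.23, 6.60 and 7.01% in WT, 7.02, 5.94, 7.64 and 8.02% in HET and 11.1, 9.17, 9.24 and 8.05% in HOMO. Q175 mice had 3.51, 4.54, 4.86, 4.77 and 3.89%, 3.19, 6.46, 6.15 and 5.89% and 8.42, 5.88 and 5.38%. The groups did not overlap with WT in HD and HOMO mice, and the Q175 HOMO group was spread out by 1 high mouse, replicate 1. The limma adjusted p values were 0.000724, 0.00111 and 0.0261, and the last was lost without WT replicate 9 or 10 or HOMO replicate 1 (up to 0.290) and with all 10 knock-in WT mice (0.299).

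Hnrnpk, an hnRNP that binds C-rich RNA, had 1.52, 2.06 and 1.65% in R6/2 WT and 2.84, 2.65 and 2.85% in HD mice (limma adjusted p 0.00244). Q150 mice had 1.49, 1.90, 0.999, 1.38 and 1.35% in WT, 1.95, 1.71, 1.57 and 1.57% in HET and 2.32, 2.32, 2.29 and 1.65% in HOMO (limma adjusted p 0.00709 for HOMO). Q175 mice had 0.873, 0.877, 0.966, 0.966 and 0.828%, 0.870, 0.978, 1.03 and 1.21% and 1.33, 1.13 and 1.23% (limma adjusted p 0.0266 for HOMO). The lowest Q150 HOMO mouse overlapped with WT, and the Q175 WT mice were below all other WT mice. With all 10 knock-in WT mice the Q175 HOMO call was lost (adjusted p 0.765), as it was without WT replicate 9 or HOMO replicate 1 or 3 (up to 0.160). After each mouse was centred on its median event, the Q150 HOMO and the Q175 HOMO calls of Hnrnpk were both lost.

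Sltm, an RNA-binding protein of the SAFB family, had 1.34, 2.12 and 2.36% in R6/2 WT and 7.84, 7.44 and 7.46% in HD mice. Q150 mice had 2.27, 1.59, 1.68, 2.88 and 3.93% in WT, 3.77, 2.85, 2.64 and 3.85% in HET and 5.32, 4.96, 6.70 and 4.43% in HOMO, and Q175 mice had 1.98, 3.21, 2.46, 1.99 and 2.57%, 2.76, 2.35, 2.66 and 2.00% and 3.11, 3.60 and 3.67%. R6/2 HD and Q150 HOMO mice were above all WT mice, whereas 1 Q175 HOMO mouse was below the highest WT mouse. On the log2 scale the changes were 2.09 ± 0.19, 1.22 ± 0.21 and 0.54 ± 0.14 SE (limma adjusted p 8.00e-06, 0.000231 and 0.0118), and the R6/2 change exceeded the Q175 one (limma adjusted p 4.62e-05). In Q175 the call fell away without HOMO replicate 2 or 3 (up to 0.0778), without a variance trend (0.135) and with all 10 knock-in WT mice (0.0815).

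Dnajc8, a J-domain protein found with the spliceosome, had 3.52, 3.67 and 4.02% in R6/2 WT and 9.51, 12.6 and 12.6% in HD mice. Q150 mice had 3.54, 3.54, 3.54, 2.65 and 3.30% in WT, 7.00, 5.91, 5.59 and 4.53% in HET and 9.60, 9.94, 7.33 and 6.54% in HOMO, and Q175 mice had 3.28, 4.13, 2.87, 3.58 and 3.59%, 3.96, 5.04, 4.88 and 4.92% and 4.77, 4.52 and 5.27%. All HD and HOMO mice and all Q150 HET mice were above their WT mice. The log2 changes were 1.74 ± 0.15, 1.395 ± 0.16 and 0.50 ± 0.13 SE (limma adjusted p 5.69e-06, 1.19e-06 and 0.00895), and the Q175 HOMO change was smaller than both others (limma adjusted p 4.76e-05 and 0.0162), the latter lost without Q175 HOMO replicate 1 or 2 with adjusted p up to 0.0598. In Q175 the call fell away without HOMO replicate 3 (0.0778).

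Of the transcription genes, Tbp, the TATA-binding protein, had 4.62, 5.68 and 4.94% in R6/2 WT and 11.8, 12.6 and 13.1% in HD mice. Q150 mice had 5.59, 4.44, 4.46, 3.84 and 3.65% in WT, 6.04, 6.92, 5.16 and 5.57% in HET and 9.27, 7.46, 7.01 and 5.75% in HOMO, and Q175 mice had 5.21, 6.38, 6.39, 6.62 and 5.10%, 6.62, 9.38, 7.73 and 8.14% and 7.91, 7.16 and 9.07%. HD and HOMO mice were above WT in all models, and the HET and HOMO mice of Q175 overlapped. The limma adjusted p values were 3.68e-05, 0.00213 and 0.0462, the last of which was lost without any 1 of 5 of the 8 mice (up to 0.239). The Q175 HOMO call of Tbp was also lost after centring and without a variance trend.

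Crcp, known both as a component of the CGRP receptor and as a subunit of RNA polymerase III, had 2.68, 1.77 and 2.86% in R6/2 WT and 7.06, 7.41 and 6.32% in HD mice. Q150 mice had 1.81, 2.31, 2.21, 2.71 and 2.69% in WT, 3.08, 3.98, 4.84 and 3.40% in HET and 4.40, 4.84, 4.703 and 5.91% in HOMO, and Q175 mice had 2.91, 2.90, 2.18, 2.47 and 3.22%, 3.54, 2.92, 3.25 and 3.18% and 4.85, 3.89 and 4.93%. Every HD, HOMO and Q150 HET mouse was above its WT mice. The limma adjusted p values were 0.000164, 0.000112 and 0.00374 (with the block 0.116 in Q175), and 0.0283 in Q150 HET mice, a call lost without any 1 of 5 of the 9 mice with adjusted p up to 0.105.

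Mtap7d2 (Map7d2), a microtubule-associated protein that works with kinesin, had 2.18, 2.23 and 3.00% in R6/2 WT and 6.21, 5.95 and 7.11% in HD mice. Q150 mice had 2.03, 2.18, 2.17, 2.35 and 3.27% in WT, 2.50, 2.29, 2.698 and 2.10% in HET and 4.46, 3.84, 3.64 and 2.97% in HOMO, and Q175 mice had 1.84, 2.14, 2.34, 2.13 and 2.21%, 2.30, 3.12, 2.45 and 3.01% and 3.53, 2.78 and 3.19%. The Q150 WT group had 1 high mouse, replicate 5, which lay within the HOMO range, and otherwise HD and HOMO mice were above WT. Log2 changes against WT were 1.44 ± 0.18, 0.66 ± 0.17 and 0.58 ± 0.15 SE (limma adjusted p 8.80e-05, 0.00662 and 0.0102). In Q175 the call fell away without HOMO replicate 1 or 3 (up to 0.0972), and the R6/2 change was larger than the Q175 HOMO change (limma adjusted p 0.00952).

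Letmd1, a mitochondrial inner membrane protein, had 1.48, 1.88 and 3.14% in R6/2 WT and 4.52, 3.77 and 5.17% in HD mice. Q150 mice had 1.57, 1.87, 2.19, 0.972 and 1.83% in WT, 3.08, 3.93, 2.67 and 2.98% in HET and 4.82, 4.28, 3.36 and 3.57% in HOMO, and Q175 mice had 2.82, 2.69, 1.94, 1.90 and 1.34%, 2.08, 3.83, 3.77 and 2.36% and 4.69, 3.78 and 4.20%. HD, HOMO and Q150 HET mice did not overlap with WT. The changes were, in log2, of like size, 1.12 ± 0.31, 1.30 ± 0.24 and 1.05 ± 0.25 SE (limma adjusted p 0.0176, 0.000376 and 0.00740). The R6/2 call was lost without WT mouse 3 or HD mouse 869 (up to 0.0653) and the Q175 call without HOMO replicate 1 (0.0566). The Q150 HET call (limma adjusted p 0.0271) was lost without WT replicate 1 or 4 or HET replicate 1 or 2 (up to 0.107).

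Urgcp had 1.18, 1.96 and 1.81% in R6/2 WT and 5.34, 5.22 and 5.06% in HD mice. Q150 mice had 1.25, 1.99, 1.83, 1.46 and 1.05% in WT, 2.59, 2.53, 2.66 and 2.06% in HET and 4.34, 3.93, 2.45 and 2.43% in HOMO, and Q175 mice had 1.71, 1.45, 1.78, 1.67 and 1.83%, 2.11, 2.10, 3.10 and 3.21% and 3.18, 2.87 and 3.49%. Every mutant mouse, heterozygotes included, lay above its WT mice, although the HET groups were not called (limma adjusted p 0.0568 and 0.0563). The HD and HOMO calls had limma adjusted p of 8.65e-05, 0.000643 and 0.000410.

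Ociad1, a protein of endosomes and mitochondria, was the only member called lower in all 3 models. R6/2 mice had 4.43, 4.62 and 4.67% in WT and 1.25, 1.45 and 1.95% in HD. Q150 mice had 5.03, 4.83, 4.61, 3.25 and 3.63% in WT, 3.42, 3.27, 3.28 and 2.78% in HET and 2.28, 3.25, 1.94 and 2.47% in HOMO, and Q175 mice had 3.75, 3.95, 4.17, 3.75 and 3.79%, 3.39, 3.69, 3.60 and 3.30% and 2.57, 2.81 and 3.14%. The genotypes were separated in R6/2 and in Q175, where HET mice lay between, while in Q150 the highest HOMO mouse lay at the level of the lowest WT mouse. The log2 changes were -1.63 ± 0.18, -0.81 ± 0.16 and -0.47 ± 0.12 SE (limma adjusted p 3.50e-05, 0.00111 and 0.0102). The fall was larger in R6/2 than in Q175 HOMO mice (limma adjusted p 8.89e-05), and that in Q175 fell away without HOMO replicate 1 (0.0947) and with the block (0.107).

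Tests of the difference between changes put these calls side by side. Between R6/2 HD and Q150 HOMO, whose ages and alleles differ, 9 of 235 members changed more upward in R6/2 and 6 more downward, beside 3.69% and 3.27% of all events. Between R6/2 HD and Q175 HOMO the numbers were 35 and 5 of 236, beside 10.2% and 2.77%. Between Q150 HOMO and Q175 HOMO 15 members changed more upward in Q150 and 2 more downward, of 245, beside 2.66% and 0.751% (after centring 9 of 12 were upward). Without R6/2 WT mouse 4 the first comparison had 9 calls, and without Q175 HOMO replicate 1 the last had 6. With each mouse left out in turn 8 of the 15, 21 of the 40 and 6 of the 17 calls held throughout. The median difference over members was 0.25 on the log2 scale for both comparisons with Q175 HOMO (0.12 over all events), and -0.05 between R6/2 and Q150 HOMO.

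Opposite calls were made for 2 of 235 members between R6/2 and Q150 HOMO, beside 5 of all 1680 events tested in both, and for none in the other pairs, beside 1 of 1696 events between R6/2 and Q175 HOMO and 0 of 1731 between Q150 and Q175 HOMO. Neither of the 2 calls in Q150 HOMO mice held with all 10 knock-in WT mice. Ank1, an ankyrin that links membrane proteins to spectrin, had 0.998, 1.39 and 1.36% in R6/2 WT and 2.46, 2.38 and 3.28% in HD mice, but 1.60, 1.98, 1.75, 1.33 and 2.10% in Q150 WT and 0.824, 1.16, 1.26 and 0.690% in HOMO mice. The groups were separated in both models, upward in R6/2 (log2 change 1.10 ± 0.31 SE, limma adjusted p 0.0173, lost without WT mouse 3 or HD mouse 869 with adjusted p up to 0.0906) and downward in Q150 (log2 change -0.84 ± 0.27 SE, limma adjusted p 0.0276). The difference of the changes was 1.94 (limma adjusted p 0.00380), while the Q150 call was lost without any 1 of 5 of its 9 mice (up to 0.0912). Snx14, a sorting nexin named here after its values were seen, fell in R6/2 (7.43, 9.72 and 9.32% in WT, 7.08, 6.96 and 6.58% in HD, limma adjusted p 0.0480) and rose in Q150 HOMO mice (7.99, 9.59, 7.72, 5.76 and 7.24% in WT, 11.03, 9.82, 10.7 and 8.98% in HOMO, limma adjusted p 0.0172). The Q150 groups overlapped, and the changes differed by -0.84 (limma adjusted p 0.0123). The Snx14 call in R6/2 was lost without any 1 of 5 of the 6 mice with adjusted p up to 0.168 and that in Q150 HOMO mice without HOMO replicate 1 with adjusted p of 0.0604. Without a variance trend both were lost, and after centring the Q150 HOMO call was.

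Grouped by what their genes do, more members of each list were called higher than lower in R6/2 HD and in Q150 HOMO mice, as among all events, of which 21.1% were called higher and 7.46% lower in R6/2 HD and 19.8% and 4.09% in Q150 HOMO mice. The lists leave out some members of like function that are named above, such as Sltm, Tbp and mKIAA0544. They hold few members, and nothing is read from how their counts stand to these shares. Of the list of kinases and phosphatases 7 of 16 were called higher in R6/2 HD and 5 of 15 in Q150 HOMO mice, with none lower and median log2 changes of 0.60 and 0.42. Camk2d and Camkk2 are described above. Dclk2, a doublecortin-like kinase, had 0.741, 1.11 and 0.400% in WT and 2.79, 1.09 and 3.19% in HD mice, which overlapped (limma adjusted p 0.0317, lost without any 1 of 4 of the 6 mice with adjusted p up to 0.119), and Cdkl3, a kinase related to the cyclin-dependent ones, 8.31, 9.70 and 8.18% and 16.8, 21.4 and 19.96%, which did not (limma adjusted p 0.00114).

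In the list of RNA-binding and splicing genes 6 of 19 members were called higher and 2 lower in R6/2 HD (21.1% and 7.46% of all events), 6 of 21 higher and none lower in Q150 HOMO (19.8% and 4.09%) and 3 of 25 higher in Q175 HOMO mice (5.60%), with medians of 0.21, 0.51 and 0.01. Sltm, called higher in all 3 models, is not in this list, nor does the list hold all of Ybx1, Fmr1, Hnrnpk and Rbfox2. Ptbp2, a neuronal polypyrimidine tract-binding protein, had 1.82, 1.39 and 1.09% in R6/2 WT and 2.93, 3.08 and 3.54% in HD mice (limma adjusted p 0.00145). Q150 mice had 1.23, 1.38, 1.51, 1.48 and 1.74% in WT, 2.21, 2.35, 1.98 and 2.29% in HET and 3.13, 3.21, 3.94 and 2.83% in HOMO, 3 groups without overlap (limma adjusted p 0.0405 and 2.14e-05 against WT), of which the HET call was lost without any 1 of 8 of the 9 mice with adjusted p up to 0.118. Q175 HOMO mice, at 1.41, 1.91 and 1.89%, overlapped with WT, and their change differed from both others (limma adjusted p 0.00882 and 0.00810), the latter lost without Q175 HOMO replicate 1 with adjusted p of 0.0671.

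The list of channels, receptors and synapse had 4 of 17 called higher in R6/2 HD (21.1% of all events) and 7 higher and 1 lower of 17 in Q150 HOMO mice (19.8% and 4.09%), with medians of 0.30 and 0.50. Atp2b4, a calcium pump of the plasma membrane, had 5.94, 9.30 and 8.46% in R6/2 WT and 18.6, 14.8 and 16.6% in HD mice (limma adjusted p 0.00157), without overlap. Kcnh7, a potassium channel, had 1.92, 2.17 and 1.92% and 2.98, 4.36 and 4.22% (limma adjusted p 0.00216), again without overlap. Slc25a28, a mitochondrial iron carrier, had 0.184, 0.631 and 0.554% and 0.178, 0.271 and 0.143%, which overlapped (limma adjusted p 0.118).

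Cytoskeleton and motor genes had 4 of 16 called higher and 1 lower in R6/2 HD (21.1% and 7.46% of all events) and 5 and 1 of 16 in Q150 HOMO mice (19.8% and 4.09%, medians 0.36 and 0.33). Kif1a, a kinesin of synaptic vesicle transport, had 0.650, 0.752 and 0.614% in WT and 1.36, 1.24 and 1.405% in HD mice, all higher (limma adjusted p 0.00158), and Sorbs2, an adaptor of actin and adhesion proteins, had 3.09, 2.90 and 2.68% and 5.63, 7.83 and 3.60%, just short of the call (limma adjusted p 0.0508). The list of transcription and chromatin genes had 5 of 18 higher in R6/2 HD (21.1% of all events) and 8 of 18 in Q150 HOMO mice (19.8%), with none lower (medians 0.18 and 0.46). Gabpb1, called lower in Q150 HOMO mice, and Tbp, called higher in R6/2 HD and Q150 HOMO mice, are not in this list. Atf2, a CREB-like transcription factor, had 6.60, 8.32 and 7.34% and 11.8, 12.4 and 14.3% in R6/2 (limma adjusted p 0.000989), Foxk2, a forkhead factor, 2.47, 3.20 and 3.06% and 4.50, 4.57 and 4.29% (limma adjusted p 0.0366, lost without any 1 of 5 of the 6 mice with adjusted p up to 0.119), and Crem, a cAMP-responsive factor, 3.81, 8.47 and 4.08% and 19.0, 14.8 and 5.59% (limma adjusted p 0.122). The R6/2 groups of Atf2 and Foxk2 did not overlap, those of Crem did.

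The list of vesicle traffic, ubiquitin and chaperone genes had 3 of 13 called higher and 2 lower in R6/2 HD (21.1% and 7.46% of all events) and 5 of 17 higher in Q150 HOMO mice (19.8%, medians -0.07 and 0.11). The 3 higher in R6/2 were Bin1, Cul2 and Dnajc8, which entered the list as a J-domain gene, and the 2 lower were Picalm and Snx14. The ubiquitin ligase genes mKIAA0544, called higher in R6/2, and Ttc3, called lower in Q150 HOMO mice, are not in this list. Bin1, an amphiphysin of membrane curvature, had 3.87, 3.88 and 3.41% in WT and 8.54, 11.1 and 10.5% in HD mice (limma adjusted p 0.0120), and Cul2, a scaffold of ubiquitin ligases, 2.17, 2.25 and 1.67% and 3.59, 4.02 and 3.77% (limma adjusted p 0.00956). HD mice were above all WT mice in both. The small GTPase list had 1 of 5 called higher in R6/2 HD and 1 of 6 in Q150 HOMO mice, in both the exon of Evi5l, which acts on Rab GTPases (3.03, 3.95 and 3.47% in R6/2 WT, 5.08, 4.36 and 4.48% in HD, limma adjusted p 0.0379, lost without any 1 of 5 of the 6 mice with adjusted p up to 0.135). The Evi5l call in Q150 HOMO mice (limma adjusted p 0.0266) was lost without any 1 of 4 of the 9 mice with adjusted p up to 0.0793, and was lost after centring. Rhot1, Dock3 and Arhgef6 were not called (log2 change 0.35, 0.27 and -0.23 in R6/2). In Q175 HOMO mice each list other than the RNA-binding one had at most 1 member called. Tbp and Crcp, called higher there, are not in the list of transcription genes.

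A pair of member entries was listed in 15 genes, and in all of these but Rcor3 the 2 entries held different counts. The 2 entries of Gnas, the stimulatory G protein subunit, fell together in R6/2, from 1.86, 2.15 and 2.57% to 1.72, 1.52 and 1.38% and from 5.22, 6.65 and 5.83% to 4.90, 4.03 and 3.95% (limma adjusted p 0.0191 and 0.0121), with HD mice below all WT mice in both. The first call was lost without WT mouse 6 or HD mouse 869 with adjusted p up to 0.0926 and the second was lost without WT mouse 4 with adjusted p of 0.0588. For the 2 exons of 5830434P21Rik (Prrc2b) the R6/2 log2 changes were 1.13 (limma adjusted p 0.0151, lost without WT mouse 3 or HD mouse 868 with adjusted p up to 0.0582) and -0.80 (limma adjusted p 0.133), and in Q150 HOMO mice 1.42 and 0.14, of which the first was called. Of the 2 exons of Epb4.1l1, an actin and spectrin linker, the one at 0.454, 0.544, 0.531, 0.466 and 0.443% in Q150 WT rose to 0.857, 0.862, 0.758 and 0.703% in HOMO mice (limma adjusted p 0.0168), and the other had a log2 change of 0.43 (limma adjusted p 0.153). Senp6, a SUMO protease, and Gpcpd1, a glycerophosphodiesterase, each had 1 of 2 exons called higher in Q150 HOMO mice (log2 change 0.67 and 1.13, limma adjusted p 0.0128 and 0.0393), with HOMO mice of Gpcpd1 at 12.8, 21.02, 5.36 and 9.30% overlapping WT at 5.71, 4.57, 6.402, 3.98 and 6.02%. The Senp6 call was lost without HOMO replicate 2 with adjusted p of 0.0564 and the Gpcpd1 call was lost without any 1 of 5 of the 9 mice with adjusted p up to 0.179. After centring, the Q150 HOMO calls of Epb4.1l1, Senp6 and Gpcpd1 were all lost. Neither exon of Mobkl3 (Mob4) was called in any of the 7 comparisons. The 2 entries of Rcor3, being the same counts, were called in R6/2 together (log2 change 0.99, limma adjusted p 0.0383, lost without any 1 of 4 of the 6 mice with adjusted p up to 0.136, and lost after centring).

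Exon length and nearby letters were not used by the choice of members, and are given as a description with no test. Members called higher in R6/2 had a median exon length of 81 bases against 90 in those not called, and 32 of 58 coding ones (55.2%) had a length that is a multiple of 3 against 65.1% of those not called. In Q150 HOMO mice they were 39 of 65 and 80 of 133 (60.2%). TGTGTG occurred in the 200 bases before 16 of 68 members called higher in Q150 HOMO mice (23.5%) and before 15 of 145 not called (10.3%), and in R6/2 before 10 of 61 (16.4%) and 18 of 138, beside 16.4% of all matched cassettes. It also preceded 3 of 11 members called lower in R6/2 (27.3%) and 1 of 6 called lower in Q150 HOMO mice (16.7%). After the exon it occurred in 13.2% and 17.9% in Q150 HOMO and in 14.8% and 16.7% in R6/2. CACACA, the same motif on the other strand, preceded 8.82% of members called higher and 7.59% not called in Q150 HOMO mice, 11.5% and 4.35% in R6/2, and 6.12% of all matched cassettes. Of all 287 members, 122 (42.5%) were called in at least 1 of the 7 comparisons within models and 165 in none, beside 704 of all 1922 events (36.6%).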

How the data were processed

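RASL-seq libraries of 31 cortices (total RNA extracted with Trizol) had been counted by the authors. The deposited values, recorded as unit other, are the authors' short and long junction counts per event, not normalised, with a comma in large numbers that was removed here. The submitters' processing notes name the genome build mm10. The aligner and counter are not given in the sources used here. The lowest count of any junction in any mouse was 4, so weaker events may have been left out before deposit, and an exon skipped more rarely may not be listed. No molecular identifiers are stated.

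Groups came from the sample labels. Titles call all knock-in mice Q150 and the genotype field calls the mutants Q175, so the glutamine number per allele decided the line. Numbers of homozygotes in the methods differ from the labels, which were used, and 1 Q175 HET mouse has different numbers in its title and its file. WT mice were split by event list. Nothing states that mice came from separate litters, so p-values measure the spread between these mice.

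Members and gene lists were chosen with earlier results of these data known. Exclusion was 100 x short / (short + long). The ratio log2((short + 0.5) / (long + 0.5)) was fitted in limma 3.58.1 (R 4.3.3) on all events of a set, each group having its own mean, with a variance trend on the counts and Benjamini-Hochberg adjustment over all events. Events needed a mean of 10 counts, which removed none. Differences between models were contrasts over the mice and events of both sets. The script was tested on simulated data. The pseudocount understates changes where few short counts were made. The exons named were the largest called changes without overlap in R6/2 (12 up, 6 down), Q150 HOMO and Q175 HOMO (8 up, 4 down each), the 4 largest HET changes per line, up to 6 called HOMO-HET changes, up to 10 called in all models, Mtap7d2, 3 exons each just inside the limit, just outside it and lowest in WT, up to 8 genes with 2 members, and the 4 largest R6/2 changes per list.

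Alternatives were other count minima (none, 50, and 20 on the short junction), a pseudocount of 5, a minimum log2 change of 0.5, no variance trend, centring of each mouse, a quasi-binomial model, each mouse left out, only the groups compared, mouse-number series as a block (Q150 under and over 400, Q175 under and over 1000), all 10 knock-in WT mice, members chosen by other WT mice, and a WT limit of 5%. Counting identical entries once was added after seeing the data. A neuronal marker of the list is not reported here. Exons were found in the GENCODE annotation of GRCm38 by gene and exact length of the skipping intron and sequences read from that genome. Numbers were handled in Python 3.11.15 with pandas 2.3.3, and figures drawn with matplotlib 3.10.9.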

Additional observations from a re-analysis of the deposited data

Results flagged for a closer look

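Among the exons named above, 22 groups of 4 or 5 mice held 1 mouse whose gap to the nearest other mouse was large for the range of its group (Dixon's criterion). Chance alone gives such a mouse in about 1 of 20 groups, and 373 groups were examined. The values are exclusion in percent of that mouse, and the other mice of its group stand beside it. In Q150 WT mice 1 mouse was far above the rest of its group for Mtap7d2 (3.27%, others 2.03 to 2.35%), D11Bwg0517e (0.788%, others 0.272 to 0.417%), Itpr1 (5.93%, others 3.94 to 4.38%) and Arhgef6 (10.6%, others 6.35 to 7.32%). In Q150 HET mice 1 mouse was far above the rest of its group for Trim9 (0.455%, others 0.225 to 0.255%). In Q150 HOMO mice 1 mouse was far above the rest of its group for Rbm5 (10.8%, others 8.04 to 8.46%). In Q175 WT mice 1 mouse was far above the rest of its group for Camk2d (0.521%, others 0.379 to 0.389%), D11Bwg0517e (0.795%, others 0.439 to 0.533%), Picalm (10.3%, others 7.403 to 8.0%) and Ank1 (1.93%, others 0.991 to 1.24%). In Q150 WT mice 1 mouse was far below the rest of its group for Peli3 (4.72%, others 6.84 to 7.38%), Tmem41b (0.743%, others 1.03 to 1.10%) and Dnajc8 (2.65%, others 3.30 to 3.54%). In Q150 HET mice 1 mouse was far below the rest of its group for Dock3 (1.22%, others 1.83 to 1.84%). In Q150 HOMO mice 1 mouse was far below the rest of its group for 5830434P21Rik (3.99%, others 7.54 to 8.22%), Ybx1 (13.5%, others 15.5 to 15.6%), Hnrnpk (1.65%, others 2.29 to 2.32%), Slc30a9 (10.6%, others 13.3 to 13.6%) and 2700029M09Rik (3.33%, others 5.17 to 5.30%). In Q175 HET mice 1 mouse was far below the rest of its group for Rbm5 (4.09%, others 6.72 to 7.02%), Senp6 (5.34%, others 9.13 to 9.28%) and Dnajc8 (3.96%, others 4.88 to 5.04%).

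The change against WT differed between R6/2 HD and Q150 HOMO mice in the limma test of that difference for 11 of the exons named above. The log2 change was higher in R6/2 HD mice, by the difference in brackets, for Ank1 (1.94), Fis1 (1.76), BC042720 (1.62), mKIAA0544 (1.27), Ttc3 (1.13) and Kcnh7 (0.78). It was lower in R6/2 HD mice for pcm-1 (-1.78), 2700029M09Rik (-1.12), Eif2a (-0.97), Nna1 (-0.86) and Snx14 (-0.84). Calls of this difference lost when some single mouse was left out were those of 2700029M09Rik, Eif2a, Kcnh7, Nna1, mKIAA0544 and pcm-1. The ages and alleles of the lines differ too, and which of these goes with the differences cannot be told apart.

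The change against WT differed between R6/2 HD and Q175 HOMO mice in the limma test of that difference for 28 of the exons named above. The log2 change was higher in R6/2 HD mice, by the difference in brackets, for Mcf2l (2.17), BC042720 (1.85), Camkk2 (1.79), Dclk2 (1.59), Fis1 (1.59), Sltm (1.55), Nbr1 (1.39), Kdm6a (1.34), Ank1 (1.33), D11Bwg0517e (1.30), Dnajc8 (1.24), Rbm5 (1.24), mKIAA0544 (1.23), Cnot1 (1.21), Ptbp2 (1.21), Atp2b4 (1.20), Kif1a (1.10), Tbp (0.94), Mtap7d2 (0.86), Crcp (0.82), Urgcp (0.80), Kcnh7 (0.76), Atf2 (0.63) and Slc30a9 (0.56). It was lower in R6/2 HD mice for pcm-1 (-1.42), Eif2a (-1.27), Ociad1 (-1.16) and 2700029M09Rik (-1.08). Calls of this difference lost when some single mouse was left out were those of Ank1, Atf2, Camkk2, Cnot1, Crcp, D11Bwg0517e, Dclk2, Kcnh7, Kdm6a, Slc30a9, Urgcp, mKIAA0544 and pcm-1.

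The change against WT differed between Q150 HOMO and Q175 HOMO mice in the limma test of that difference for 11 of the exons named above. The log2 change was higher in Q150 HOMO mice, by the difference in brackets, for Kdm6a (1.57), Ptbp2 (1.20), Nbr1 (1.12), Cnot1 (1.11), 2210018M11Rik (1.06), Slc30a9 (0.91), Rbm5 (0.91), Dnajc8 (0.89), Snx14 (0.79) and Hnrnph2 (0.74). It was lower in Q150 HOMO mice for Ttc3 (-1.10). Calls of this difference lost when some single mouse was left out were those of 2210018M11Rik, Cnot1, Dnajc8, Hnrnph2, Kdm6a, Ptbp2, Rbm5 and Snx14.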

How the results depend on the processing

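None of the 281 called changes of members in the 10 comparisons reversed its direction in any refit, while 150 kept their call with each mouse left out and 139 in every refit. Counts of called members below are for the comparisons in this order: R6/2 HD, Q150 HET, Q150 HOMO and Q150 HOMO against HET, Q175 HET, Q175 HOMO and Q175 HOMO against HET, and the differences R6/2 to Q150 HOMO, R6/2 to Q175 HOMO and Q150 to Q175 HOMO. With the settings of the report they were 88, 12, 83, 7, 1, 17, 1, 15, 40 and 17. With a WT limit of 5%, which leaves fewer members, they were 53, 6, 45, 4, 0, 11, 0, 7, 24 and 6. With 1 mouse left out the ranges were 67 to 81, 1 to 16, 60 to 80, 2 to 8, 0 to 5, 7 to 19, 0 to 2, 9 to 15, 29 to 38 and 6 to 20. A count moved by more than 1.5 times in Q150 HET without WT replicate 3 or HET replicate 2 (7 each) or HET replicate 1 (1), in Q150 HOMO against HET without any of its mice but HOMO replicate 4 (2 to 4), in Q175 HET without WT replicate 6 or HET replicate 2 (2 each), HET replicate 1 (5) or HET replicate 4 (0), in Q175 HOMO without WT replicate 9 or HOMO replicate 3 (11 each) or HOMO replicate 1 (7), in Q175 HOMO against HET without HET replicate 2 (2) or HOMO replicate 1 (0), in R6/2 to Q150 HOMO without R6/2 WT mouse 4 (9), and in Q150 to Q175 HOMO without WT replicate 6 (11), Q175 HOMO replicate 1 (6) or 2 (8). Counting identical entries once gave 87 calls in R6/2 and the same numbers elsewhere. Centred on the median event, Q150 HOMO had 51 calls and Q150 HOMO against HET 2. Without a variance trend Q150 HOMO against HET had 4, Q175 HET 0, Q175 HOMO 5, Q175 HOMO against HET 0 and the Q150 to Q175 difference 10. With mouse-number series as a block Q150 HET had 32 calls, Q150 HOMO against HET 13, Q175 HET 0 and Q175 HOMO against HET 0, and all 12 and all 7 calls of these Q150 contrasts remained, while Q175 HOMO had 15, all higher, with 11 of its 17 calls among them. With all 10 knock-in WT mice Q150 HET had 25 (10 of the 12 shared) and Q175 HET 4. Q175 HET had 3 in the quasi-binomial model and 2 with members chosen by the WT mice of the other sets, and Q175 HOMO against HET had 2 with only these groups in the fit. The cause of these shifts was not tested, and the shares of all events called under these settings are not given beside them.

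The differences of mean exclusion, in points, were 0.752 (R6/2), 0.271 (Q150 HET), 0.417 (Q150 HOMO), 0.146 (Q150 HOMO against HET) and 0.0459 (Q175 HOMO) for the median over events, and 0.883 (R6/2), 0.279 (Q150 HET) and 0.685 (Q150 HOMO) for summed counts. No paired analysis was possible because the mice carry their own numbers and the labels match no mutant with a WT mouse. The counts of the skipping junction, with a median of 40, limit the precision of each ratio.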
